A study of Homo sapiens with 16 samples.

Results

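Integrins and laminins were followed here as 34 genes, 24 coding for integrin chains and 10 for laminin chains, taken as a list of symbols and matched to Ensembl identifiers among the 60676 genes of the deposited counts. All 34 members were found. Bulk RNA-seq had been made from A101D and MeWo, both human melanoma lines, and each line gave 8 libraries. A101D is labelled with methionine dependence, which means that its growth fails when methionine is replaced by its precursor homocysteine, and MeWo grows under that replacement. The growth protocol, given alike for every library, starts from glucose-rich medium with dialyzed serum and added cystine and then names either methionine or, in its place, homocysteine as the supplement, each at 200 µM. No label says which of these supplements a given library had. The 2 groups were therefore the lines, each 1 established line standing for its phenotype, and nothing in the labels says whether the 8 libraries of a line came from separate cultures, so the p-values below measure only the spread between these libraries.

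Integrins are cell-surface receptors made of one alpha and one beta chain, and the pair decides which matrix protein the cell holds. Laminins are cross-shaped proteins of basement membranes, the sheets on which epithelia, vessels and melanocytes rest, each built from one alpha, one beta and one gamma chain. The laminin alpha chain carries the sites bound by the laminin-receptor integrins, whose alpha chains are ITGA3, ITGA6 and ITGA7, paired with ITGB1 or ITGB4. Other integrins bind collagens, or the RGD motif of fibronectin and vitronectin, and a further set is typical of white blood cells. In melanoma, the integrin made of ITGAV and ITGB3 is known for its presence in invasive lesions.

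Library totals ran from 28910881 to 38961862 counts in A101D and from 31217443 to 38722489 in MeWo. The melanocyte genes SOX10 and MITF had 142.5 counts per 1e6 scaled counts (CPM) or more in every library of both lines, while TYR lay between 1.10 and 1.76 CPM and TYRP1 between 0.249 and 1.76 CPM in A101D. In MeWo TYR had 282 to 318 CPM and TYRP1 2059 to 2595. The third pigment enzyme on that list, DCT, had 1260.1 to 1883 CPM in A101D and 422 to 555 in MeWo. DCT was the only melanocyte gene listed that was lower in MeWo. PMEL had 183 to 249 CPM in A101D and 6233 to 6846 in MeWo, and MLANA 16.7 to 35.9 and 155 to 185. The list summed to 2020 to 2763 CPM in A101D and 10114 to 11306 in MeWo. Replicates 1 to 4 and replicates 5 to 8 of A101D stood apart: of all 19247 genes tested, 30.9% had all 4 libraries of replicates 5 to 8 above all 4 of replicates 1 to 4, and 31.4% had them all below. In MeWo these shares were 8.70% and 9.55%. No label says what the numbers stand for, so the sets are described and not tested, and a line difference whose call, direction or size (by over 1.5-fold) changed within a set is given for both sets.

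Promoter windows are shown for 3 laminin genes with contrasting line differences: LAMA2, the alpha chain furthest below in MeWo among the well-counted laminins, LAMA5, the chain furthest above, and LAMC1, the leading gamma chain of both lines. Each line below is the 250 bases before a RefSeq start on GRCh38.p14, printed 5′ to 3′ on the gene's strand. Capitals mark matches on either strand to the letters TGANTCA (AP-1), GGAATG (TEAD), CATGTG or CACGTG (MITF) and GGGCGG (SP1), and neighbouring matches may overlap.
LAMA2, chr6:128882888-128883137, plus strand: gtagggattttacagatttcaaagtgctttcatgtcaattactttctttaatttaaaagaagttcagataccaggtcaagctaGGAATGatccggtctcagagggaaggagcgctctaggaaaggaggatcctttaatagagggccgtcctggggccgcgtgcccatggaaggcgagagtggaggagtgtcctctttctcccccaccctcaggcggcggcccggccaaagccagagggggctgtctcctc
LAMA5, chr20:62367313-62367562, minus strand: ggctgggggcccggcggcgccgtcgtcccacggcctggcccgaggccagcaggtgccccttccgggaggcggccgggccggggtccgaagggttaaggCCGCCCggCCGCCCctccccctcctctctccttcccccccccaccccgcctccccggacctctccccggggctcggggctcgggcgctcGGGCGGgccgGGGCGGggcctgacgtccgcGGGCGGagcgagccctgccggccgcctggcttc
LAMC1, chr1:183023170-183023419, plus strand: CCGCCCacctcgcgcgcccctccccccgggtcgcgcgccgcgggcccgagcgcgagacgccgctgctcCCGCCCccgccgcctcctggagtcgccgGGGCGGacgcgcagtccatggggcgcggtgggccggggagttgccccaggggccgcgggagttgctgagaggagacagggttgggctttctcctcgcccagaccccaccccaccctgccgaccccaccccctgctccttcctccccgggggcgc
The LAMA2 window was 53.2% G and C with 1 TEAD match. LAMA5 reached 82.8% with 5 SP1 matches and LAMC1 79.6% with 3, against a median of 58.0% over all 35116 windows of this length. RefSeq windows were found for 24 of the 34 members, 31 windows in all. The SP1 letters occurred in 17 of these 31 and in 42.6% of all windows. The TEAD letters occurred in 4 of 31 against 11.9%, the AP-1 letters in 2 against 6.57%, CATGTG in 3 against 9.42% and CACGTG in 1 against 6.34%. These are matches of letters, not measured binding. The members without a window were ITGA3, ITGA7, ITGA9, ITGAL, ITGAX, ITGB2, ITGB3, ITGB4, LAMA1 and LAMC3.

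Most integrin and laminin genes were lower in MeWo than in A101D, and the exceptions were few: the laminin alpha chains LAMA1 and LAMA5, the beta chain LAMB2, and the integrin chains ITGA3, ITGAE, ITGB1 and ITGB4. Of the 34 members, 30 had enough counts to be tested. Among these, 7 were higher in MeWo, where 38.5% of all tested genes were higher, and 22 were lower, where 40.5% of all tested genes were lower (limma-voom, a linear model with precision weights, at a Benjamini-Hochberg adjusted p under 0.05 over all 19247 genes). As shares, 23.3% of the tested members were higher and 73.3% lower. Over 2-fold, 3 members were higher (15.4% of all genes) and 14 lower (21.2% of all genes). The median log2 difference of the tested members, MeWo minus A101D, was −0.86, against −0.02 over all tested genes. For 3 of the 30 (ITGAM, ITGB6 and LAMA3) enough counts came from A101D alone, so that they could only differ in one direction. All 3 are among the 14 members lower by over 2-fold, so that number includes them. Without them, 7 of 27 were higher and 19 lower, with a median of −0.69. Shares and a median for all genes with enough counts in both lines were not computed. For 28 of the 30 the ranges of the lines did not overlap. The share of all tested genes without overlap was not counted, so this number does not set the members apart. In bulk libraries, fewer cells that carry a transcript and less of it per cell cannot be told apart.

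**Figure D1:**
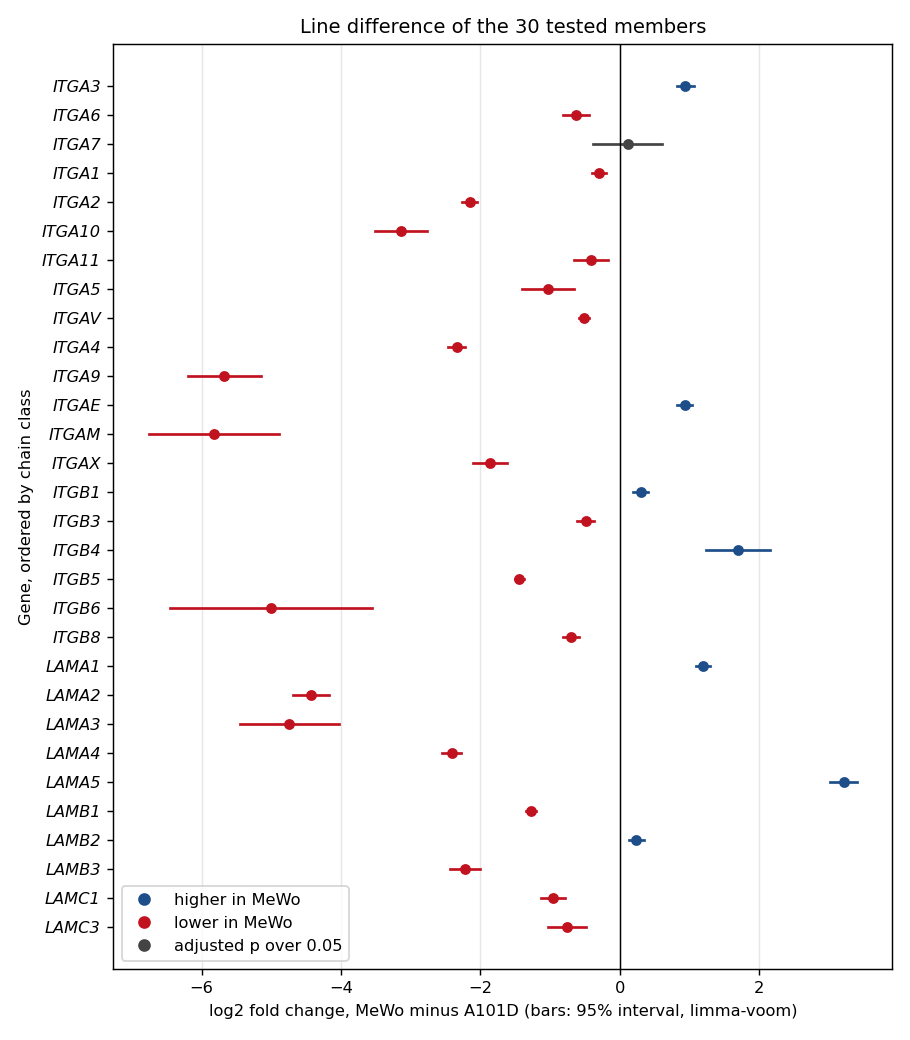
The log2 difference of each of the 30 tested members, MeWo minus A101D, with its 95% interval from limma-voom; genes are ordered by chain class and coloured by call. 22 members lie to the left of 0, 7 to the right, and the interval of ITGA7 spans 0.

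The laminin alpha chains showed an exchange between the lines (gene positions here and below are GENCODE v29 on GRCh38). LAMA1 (chr18:6941744-7117814), the alpha chain of the first laminin described and typical of embryonic basement membranes, lay between 212 and 267 CPM in A101D (median 223) and between 519 and 549 in MeWo (median 534). All MeWo libraries were above all A101D libraries, a log2 difference of 1.201 ± 0.05 (standard error, SE, n = 8 per line), which is 2.30-fold, with an adjusted p of 2.19e-13. LAMA4 (chr6:112108760-112254939), the alpha chain of vessel and muscle laminins, went the other way, with 253 to 342 CPM in A101D (median 318) and 52.7 to 60.6 in MeWo (median 58.6). Its log2 difference was −2.41 ± 0.07, or 5.31-fold lower, with an adjusted p of 7.71e-16. LAMA5 (chr20:62307955-62367312), a widespread alpha chain of adult basement membranes, had 1.91 to 3.31 CPM in A101D (median 2.71) and 22.9 to 26.2 in MeWo (median 24.1). It was the member furthest above in MeWo, by 3.22 ± 0.09 on the log2 scale or 9.29-fold, with an adjusted p of 1.37e-15.

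LAMA2, the alpha chain of the muscle and nerve laminin whose loss causes a congenital muscular dystrophy, had 14.9 to 20.7 CPM in A101D (median 17.4). In MeWo it had 0.663 to 0.944 CPM (median 0.801), a log2 difference of −4.43 ± 0.12, 21.5-fold lower, with an adjusted p of 7.05e-16. LAMA3, the alpha chain of the skin laminin that anchors keratinocytes, had 3.74 to 9.36 CPM in A101D (median 5.44) and 0.126 to 0.343 in MeWo (median 0.187). The lines did not overlap for either gene. For LAMA3 the fitted log2 difference was −4.74 ± 0.34 with an adjusted p of 5.62e-10, and the summed counts of 1606 and 56 gave a ratio of 28.6 with a 95% interval of 21.9 to 38.0, which covers counting error only.

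Among the beta chains, LAMB1, the partner of LAMA1 and LAMA4 in many laminins, had 999 to 1137 CPM in A101D (median 1078) and 429 to 460.1 in MeWo (median 444), with no overlap. The log2 difference was −1.27 ± 0.04, 2.41-fold lower, with an adjusted p of 9.22e-16. LAMB2, the beta chain of synapse and kidney laminins, had 285 to 351 CPM in A101D (median 312) and 355 to 389 in MeWo (median 371). Its ranges came close without overlapping, and the log2 difference was 0.24 ± 0.05 with an adjusted p of 0.000357. LAMB3, the beta chain that joins LAMA3 in the skin laminin, had 41.8 to 61.7 CPM in A101D (median 50.99) and 9.66 to 12.2 in MeWo (median 10.8). It was 4.64-fold lower in MeWo, −2.21 ± 0.10 on the log2 scale, with an adjusted p of 1.06e-12.

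The gamma chain LAMC1, part of most laminins, had 748 to 1050.2 CPM in A101D (median 903) and 432 to 493 in MeWo (median 449). All MeWo libraries were below all A101D libraries, a log2 difference of −0.96 ± 0.08 with an adjusted p of 5.12e-09. LAMC3, a rarer gamma chain, had 1.33 to 1.95 CPM in A101D (median 1.69) and 0.694 to 1.29 in MeWo (median 0.998). Its ranges nearly touched, and it was 1.69-fold lower, −0.76 ± 0.13 on the log2 scale, with an adjusted p of 3.84e-05.

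**Figure D2:**
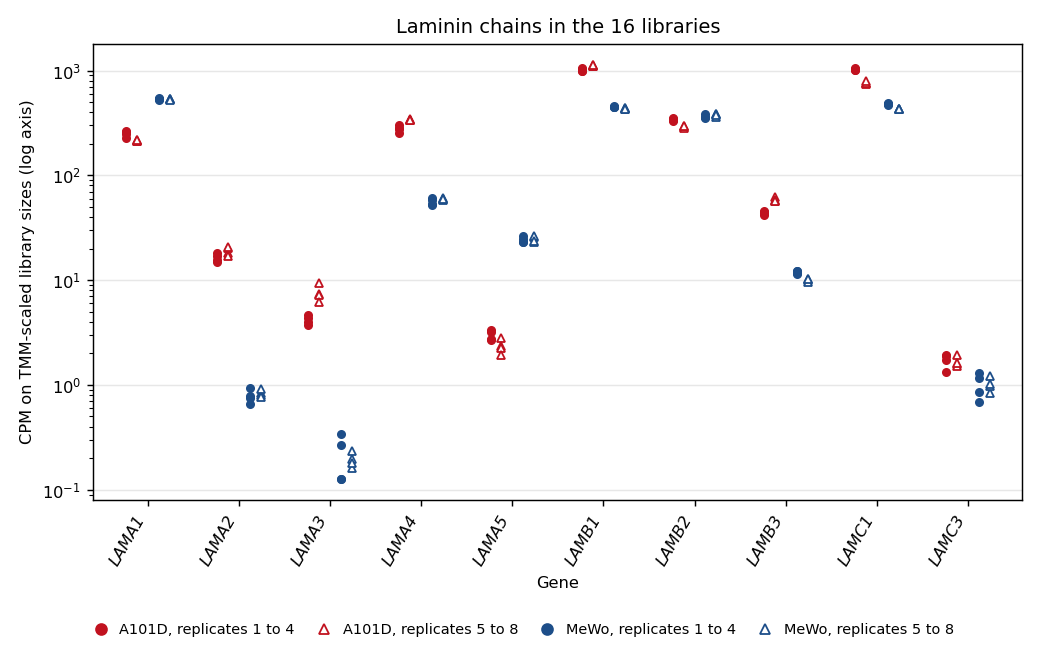
CPM of the 10 laminin chains in each of the 16 libraries on a log axis; filled circles are replicates 1 to 4 and open triangles replicates 5 to 8, with A101D in red and MeWo in blue. LAMA1, LAMA5 and LAMB2 are higher in MeWo, and the other 7 chains are lower.

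Per kilobase of exon, the scale on which different genes can be compared, the leading laminin alpha chain was LAMA4 in A101D and LAMA1 in MeWo. Summed over the 5 alpha chains, A101D had 38.2 to 45.5 CPM per kb and MeWo 39.2 to 41.5, ranges that overlapped. LAMA4 made up 56.3 to 64.9% of that sum in A101D and LAMA1 29.3 to 38.8%. In MeWo LAMA1 made up 82.7 to 84.0% and LAMA4 11.5 to 12.9%. LAMA5 held 0.296 to 0.547% in A101D and 3.91 to 4.69% in MeWo. Of the beta chains, LAMB1 held 67.4 to 71.9% in A101D and 47.5 to 50.9% in MeWo, where LAMB2 held a like share of 47.0 to 50.5%. LAMB2 had 21.8 to 27.5% of the beta chains in A101D. LAMC1 was at least 99.7% of the gamma chains in every library of either line. The beta sum had a median of 190.1 CPM per kb in A101D and 110.8 in MeWo, and the gamma sum 107.7 and 53.6. These shares describe transcripts, and no assembled laminin was measured.

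**Figure D3:**
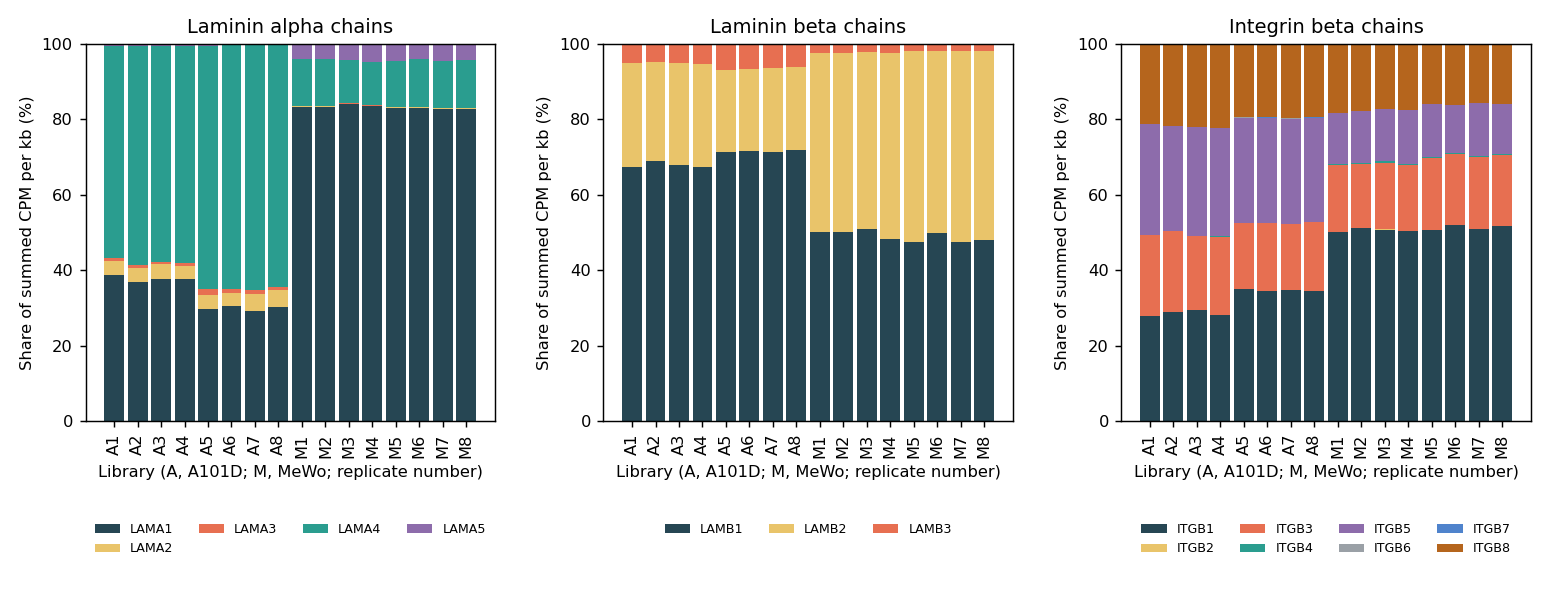
Shares of each chain among the laminin alpha, laminin beta and integrin beta chains, in percent of the summed CPM per kb of exon, by library for both lines. LAMA4 leads the laminin alpha chains in every A101D library and LAMA1 in every MeWo library, and ITGB1 makes up 27.9 to 35.0% of the integrin beta chains in A101D against 50.02 to 51.96% in MeWo.

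The receptors that bind laminin did not move together. ITGA3, the alpha chain that with ITGB1 binds the LAMA5 and LAMA3 laminins, had 116 to 156 CPM in A101D (median 135) and 243 to 268 in MeWo (median 258). It was 1.92-fold higher in MeWo with no overlap, a log2 difference of 0.94 ± 0.06 with an adjusted p of 8.69e-11. ITGA6, the alpha chain with a broad choice of laminins and the partner of ITGB4 in hemidesmosomes, had 431 to 622 CPM in A101D (median 539) and 320.0 to 357 in MeWo (median 341). It was lower in MeWo by a log2 difference of −0.63 ± 0.09, with an adjusted p of 4.42e-06. Per kilobase it was the most abundant integrin alpha transcript in both lines, at 81.2 ± 14.2 CPM per kb (SD, n = 8) in A101D and 52.0 ± 2.19 in MeWo. ITGA3 made up 4.71 to 5.43% of the integrin alpha sum in A101D and 15.7 to 17.4% in MeWo.

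ITGA7 (chr12:55684568-55716043), the laminin receptor chain of muscle, was the tested member with no call, and its A101D libraries fell on both sides of MeWo. The A101D values in replicates 1 to 4 were 42.3, 44.7, 40.6 and 43.5 CPM, and in replicates 5 to 8 they were 118.5, 107.2, 105.6 and 92.4. The MeWo values were 68.8, 66.0, 67.0 and 67.2 in replicates 1 to 4 and 79.7, 80.1, 81.2 and 75.2 in replicates 5 to 8. A101D was thus below MeWo in replicates 1 to 4 and above it in replicates 5 to 8. Over all libraries the log2 difference was 0.11 ± 0.23 with an adjusted p of 0.659. Within replicates 1 to 4 it was 0.67 with an adjusted p of 3.28e-15, and within replicates 5 to 8 it was −0.38 with an adjusted p of 4.22e-06.

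ITGB1, the beta chain shared by the most integrins, had 443 to 557 CPM in A101D (median 513) and 599.9 to 640.1 in MeWo (median 623). It was 1.23-fold higher in MeWo without overlap, a log2 difference of 0.30 ± 0.05 with an adjusted p of 3.33e-05. ITGB4, which pairs with ITGA6 alone and links laminin to keratins, had 0.732 to 2.61 CPM in A101D (median 1.18) and 3.12 to 5.07 in MeWo (median 4.23). It was 3.25-fold higher in MeWo, 1.70 ± 0.22 on the log2 scale, with an adjusted p of 1.46e-06. Its level stayed at 0.619 ± 0.0921 CPM per kb in MeWo, far below the 103 ± 2.53 of ITGB1.

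All 4 collagen-binding alpha chains, which pair with ITGB1, were lower in MeWo. ITGA2, a receptor for fibrillar collagen on platelets and epithelia, had 74.9 to 89.3 CPM in A101D (median 85.6) and 16.9 to 19.7 in MeWo (median 18.9). The difference of 4.45-fold, −2.15 ± 0.05 on the log2 scale, had an adjusted p of 9.68e-17. ITGA1, which favours the collagen IV of basement membranes, had 34.9 to 41.7 CPM in A101D (median 37.8) and 28.9 to 33.7 in MeWo (median 31.4). Its lines lay close together but apart, with a log2 difference of −0.29 ± 0.04 and an adjusted p of 1.11e-05. ITGA10, the chain of cartilage cells, had 2.88 to 5.04 CPM in A101D (median 3.78) and 0.324 to 0.629 in MeWo (median 0.416), 8.81-fold lower. Its log2 difference was −3.14 ± 0.18, with an adjusted p of 1.75e-11.

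ITGA11, the collagen receptor of fibroblasts, had 3.38 to 4.58 CPM in A101D (median 3.77) and 1.87 to 3.52 in MeWo (median 2.99), and its ranges overlapped. The log2 difference was −0.41 ± 0.12 with an adjusted p of 0.00343. Within replicates 1 to 4 it was −0.57 with an adjusted p of 0.000608. Within replicates 5 to 8 it was −0.20 with an adjusted p of 0.116, so the call was lost there.

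The chains that read RGD sequences were also lower in MeWo. ITGA5, which with ITGB1 forms the main fibronectin receptor, had 432.7, 398.8, 393.3 and 366.7 CPM in A101D replicates 5 to 8, well above the 198.7, 198.5, 202.8 and 198.7 of its replicates 1 to 4. In MeWo its 8 libraries lay between 132 and 144 CPM (median 138), below every A101D library. The log2 difference was −1.02 ± 0.18 with an adjusted p of 4.49e-05. Within replicates 1 to 4 it was −0.48 (adjusted p = 3.62e-13) and within replicates 5 to 8 −1.50 (adjusted p = 6.39e-20), so its size depended on which A101D libraries were used. ITGAV, the alpha chain shared by the vitronectin and TGF-beta activating receptors, had 316 to 357 CPM in A101D (median 330.2) and 220.4 to 249 in MeWo (median 234). It was 1.43-fold lower in MeWo, −0.51 ± 0.04 on the log2 scale, with an adjusted p of 4.20e-10. ITGA8, a further RGD receptor chain, had 1 count over all A101D libraries and 0 over all MeWo libraries.

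Apart from ITGB1, the beta partners of ITGAV (ITGB3, ITGB5, ITGB6 and ITGB8) were lower in MeWo as well. ITGB3, of the melanoma-associated vitronectin receptor, had 202 to 263 CPM in A101D (median 226) and 151 to 169 in MeWo (median 165), a log2 difference of −0.48 ± 0.06 with an adjusted p of 4.84e-07. ITGB5, of a second vitronectin receptor, had 465 to 506 CPM in A101D (median 481) and 166 to 185 in MeWo (median 181), with a log2 difference of −1.44 ± 0.03, the smallest SE among the tested members (2.71-fold, adjusted p = 8.24e-17). ITGB8, of a receptor that activates latent TGF-beta, had 764 to 925 CPM in A101D (median 822) and 468 to 579.7 in MeWo (median 507), −0.69 ± 0.06 on the log2 scale with an adjusted p of 2.64e-09. None of these ranges overlapped between the lines. As a share of the integrin beta sum per kilobase, ITGB5 held 27.4 to 29.2% in A101D and 12.8 to 14.4% in MeWo, and ITGB3 held 17.6 to 21.5% and 16.8 to 19.1%.

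ITGB6, the epithelial partner of ITGAV, had 0.495, 0.530, 0.320 and 0.563 CPM in A101D replicates 1 to 4 and 2.32, 1.88, 2.25 and 2.11 in replicates 5 to 8. In MeWo it had at most 0.0947 CPM, and 8 counts in all against 363 in A101D. The ratio of summed counts was 45.2 with a 95% interval of 22.7 to 105.5 (counting error only). The fitted log2 difference was −5.00 ± 0.69 with an adjusted p of 3.24e-06. It was −3.31 within replicates 1 to 4 and −6.60 within replicates 5 to 8, both past the threshold.

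ITGA4 and ITGA9, related chains that bind VCAM1, fibronectin variants and osteopontin, were both far lower in MeWo. ITGA4, known from white blood cells and neural crest cells, had 404 to 527 CPM in A101D (median 470.4) and 85.0 to 97.2 in MeWo (median 91.1). It was 5.06-fold lower, −2.34 ± 0.06 on the log2 scale, with an adjusted p of 4.15e-16. It made up 17.0 to 26.6% of the integrin alpha sum per kilobase in A101D and 6.93 to 7.59% in MeWo. ITGA9 had 28.7 to 49.5 CPM in A101D (median 32.0) and 0.450 to 0.819 in MeWo (median 0.676). Its 51-fold difference, −5.67 ± 0.25 on the log2 scale, had an adjusted p of 5.07e-13.

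Integrin chains typical of white blood cells were present at low levels. ITGAX, a complement receptor chain of dendritic cells, had 12.3 to 19.9 CPM in A101D (median 17.1) and 4.12 to 5.19 in MeWo (median 4.46). It was 3.63-fold lower in MeWo, −1.86 ± 0.11 on the log2 scale, with an adjusted p of 5.92e-11. ITGAM, its relative on monocytes and neutrophils, had 1.99 to 6.71 CPM in A101D (median 4.05) and 0.0279 to 0.102 in MeWo (median 0.0593). The summed counts were 1204 and 17, a ratio of 70.6 with a 95% interval of 43.9 to 121.5 (counting error only), and the fitted log2 difference was −5.83 ± 0.44 with an adjusted p of 1.27e-09. Within replicates 1 to 4 it was −5.17 and within replicates 5 to 8 −6.42, both past the threshold. ITGAM (chr16:31259967-31332892) and ITGAX (chr16:31355134-31382997) are neighbours on the plus strand. Both chains pair with ITGB2, which had 0.187 to 0.732 CPM in A101D and 0.112 to 0.380 in MeWo, below the filter of the test. Its summed counts of 108 and 64 gave a ratio of 1.68 with a 95% interval of 1.22 to 2.33 (counting error only). Of the 9 leukocyte markers listed, the defining marker PTPRC reached at most 0.278 CPM in A101D and 0.126 in MeWo, and 2 in A101D and 1 in MeWo had a mean over 1 CPM. The markers, one of which is ITGAM itself, summed to 5.20 to 10.5 CPM in A101D and 3.01 to 4.05 in MeWo. Among them LYZ was lower in MeWo, with 2.63 to 3.41 CPM in A101D and 0.478 to 0.753 in MeWo. CD68 was higher, with 0.133 to 0.495 CPM in A101D and 2.24 to 2.76 in MeWo.

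ITGAE, the chain of skin and gut T cells that binds E-cadherin, went the other way, with 16.01 to 19.4 CPM in A101D (median 17.8) and 30.7 to 36.2 in MeWo (median 34.1). It was 1.91-fold higher in MeWo without overlap, 0.93 ± 0.05 on the log2 scale, with an adjusted p of 1.16e-11. Its usual partner ITGB7 had 0.267 to 0.587 CPM in A101D and 0.0512 to 0.252 in MeWo, below the filter of the test. Its summed counts of 108 and 39 gave a ratio of 2.76 with a 95% interval of 1.90 to 4.09 (counting error only). The exons of ITGAE share 427 bases, 6.41% of their length, with the opposite-strand gene HASPIN, which had 4.49 to 17.3 CPM in A101D and 28.4 to 31.0 in MeWo. The strand setting of the counting is not given in the sources used here, so the part of HASPIN in the ITGAE counts was not tested. ITGAL, the lymphocyte chain that binds ICAM1, had 11 counts over all A101D libraries and 16 over all MeWo libraries, a ratio of 0.685 with a 95% interval of 0.287 to 1.57, which spans 1.

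**Figure D4:**
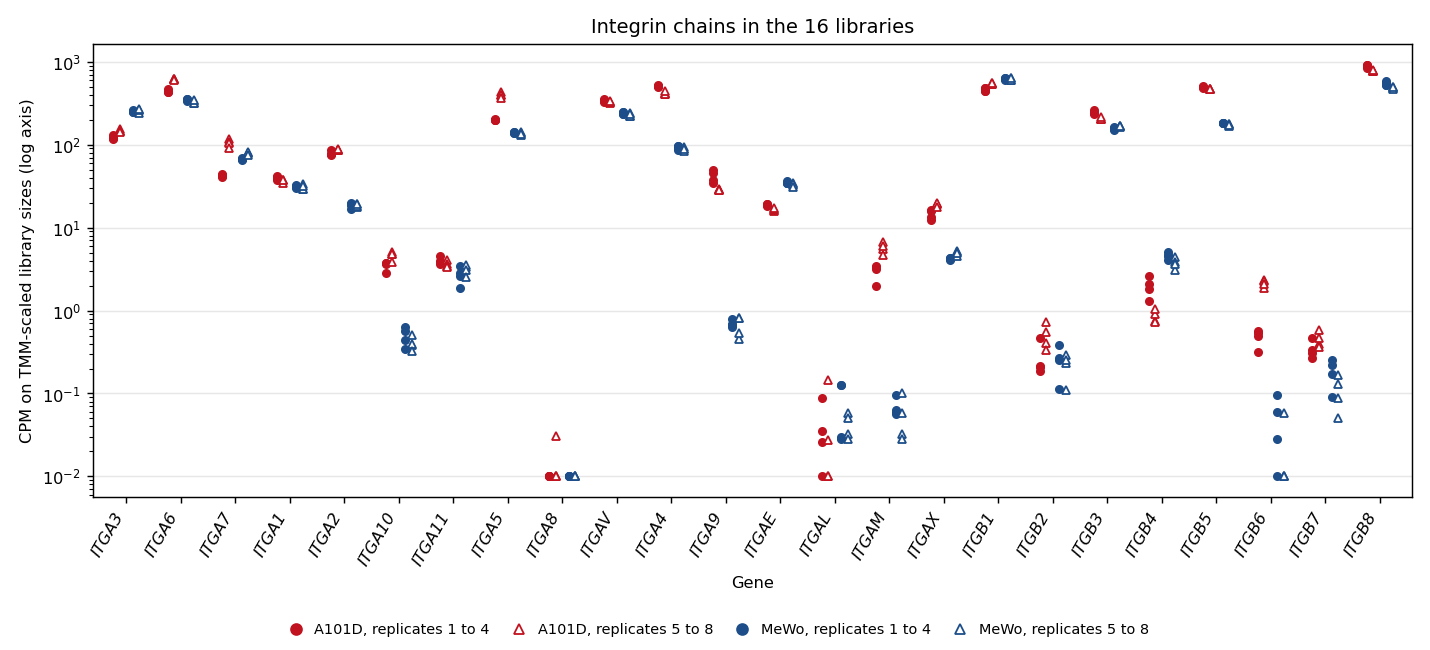
CPM of the 24 integrin chains in each of the 16 libraries on a log axis; filled circles are replicates 1 to 4, open triangles replicates 5 to 8, and libraries without a count are drawn at 0.01 CPM. ITGA9, ITGAM and ITGB6 show wide gaps between the lines, and ITGA7 shows A101D on both sides of MeWo.

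Within A101D most members split by replicate number, as most genes did. Of the 30 tested members, 14 had replicates 5 to 8 entirely above replicates 1 to 4 (30.9% of all tested genes) and 10 entirely below (31.4%), and 6 overlapped. Among those above were ITGA5, ITGA7 and ITGA6, with median ratios of 1.99, 2.48 and 1.41. ITGB6 had a ratio of 4.25, LAMA3 of 1.76 and ITGAM of 1.75. Below were ITGB4 with 0.423, ITGA9 with 0.695, LAMC1 with 0.751 and ITGA4 with 0.815. In replicates 1 to 4 LAMC1 had 1009 to 1050.2 CPM, while replicates 5 to 8 held 748 to 798, a gap wider than the range of either set. The line differences of other members kept their call within both sets but varied in size. That of ITGA6 was −0.33 within replicates 1 to 4 and −0.86 within replicates 5 to 8, and that of ITGB3 −0.64 and −0.27. For ITGB4 they were 1.29 and 2.15, and for LAMB2 0.11 and 0.42. LAMA3 had −4.25 and −5.14, ITGA10 −2.76 and −3.43, and LAMB3 −1.87 and −2.50.

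In MeWo, 3 members (ITGA7, ITGAX and ITGB3) lay entirely above in replicates 5 to 8 (8.70% of all tested genes), 6 entirely below (9.55%), and 21 overlapped. The 6 were ITGAE, ITGB5, ITGB8, LAMB1, LAMB3 and LAMC1. ITGA7, ITGAX, ITGAE, ITGB5, ITGB8 and LAMC1 parted in the same direction in both lines. ITGB3, LAMB1 and LAMB3 parted in opposite directions: ITGB3 had a ratio of 0.831 in A101D and 1.07 in MeWo, and LAMB3 had 1.31 and 0.852. The MeWo ratios of these genes were nearer to 1, with 1.19 for ITGA7 as the highest among the separated members and 0.852 for LAMB3 as the lowest.

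**Figure D5:**
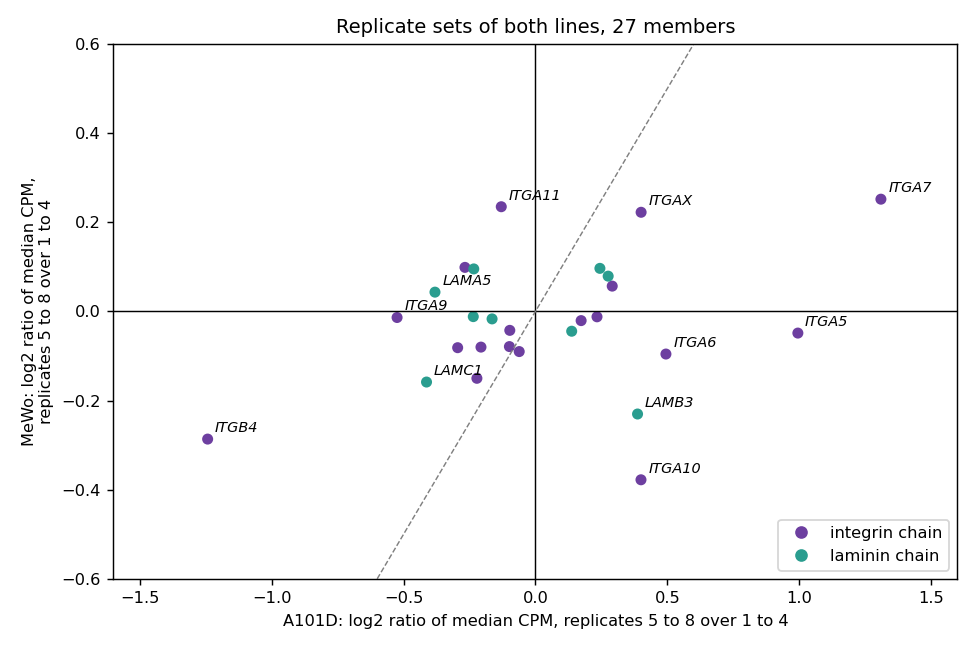
The log2 ratio of the median CPM in replicates 5 to 8 over replicates 1 to 4, A101D on the horizontal and MeWo on the vertical axis (drawn to different scales), for the 27 members with enough counts in both lines; the dashed line marks equal ratios. The points spread more along the A101D axis, with ITGA7 and ITGA5 furthest right and ITGB4 furthest left.

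The partners of these genes came from 3 further lists with 96 genes, of which 90 were tested: 21 were higher in MeWo, 57 lower and 12 not called, with a median log2 difference of −0.43. Over all tested genes 38.5% were higher and 40.5% lower, with a median of −0.02, and the counts of the 3 lists are to be read against these shares. They include genes with enough counts in A101D alone, among them COL4A6, NTN4, COL1A2, COL6A2 and LIMS2. EDIL3 had enough counts in MeWo alone. The former could only be called lower in MeWo, and EDIL3 only higher. Of the 14 other basement membrane proteins and laminin receptors, 3 were higher and 11 lower. The collagen IV chains COL4A1 and COL4A2, which form the second network of basement membranes, were lower by −0.93 ± 0.06 and −0.79 ± 0.04 on the log2 scale. NID1, which ties laminin to collagen IV, was higher by 0.92 ± 0.10. NTN4, a laminin-related protein that binds gamma chains, fell from a median of 15.6 to 0.311 CPM, a log2 difference of −5.91 ± 0.20 with an adjusted p of 1.79e-14. Of the laminin receptors outside the integrins, DAG1 differed by −0.11 ± 0.03 (adjusted p = 0.00345) and BCAM, a receptor for LAMA5, by −1.55 ± 0.09 (adjusted p = 1.66e-11). CD151, the membrane protein that accompanies ITGA3 and ITGA6, differed by 0.16 ± 0.05 (adjusted p = 0.00475).

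Among 34 further integrin ligands, 30 were tested, with 5 higher in MeWo (38.5% of all tested genes) and 19 lower (40.5%). FN1, the ligand of ITGA5, had 3908 to 5799.7 CPM in A101D (median 4891) and 659 to 759 in MeWo (median 693), a log2 difference of −2.78 ± 0.09 with an adjusted p of 6.47e-15. The ligand and its receptor chain were thus both lower in MeWo. COL1A2, a chain of collagen I, had 581 to 1028 CPM in A101D and 0.257 to 0.629 in MeWo, and COL6A2, a chain of collagen VI, had 87.4 to 111.5 and 0.0279 to 0.190. SPP1, osteopontin, a ligand of ITGA9 and ITGAV, differed by −1.99 ± 0.27, and LTBP1, which holds latent TGF-beta in the matrix, by −3.60 ± 0.16. In A101D replicates 1 to 4 and 5 to 8 the medians were 113 and 303 CPM for SPP1 and 44.5 and 67.1 for LTBP1. The MeWo medians were 41.3 and 55.1 for SPP1 and 4.55 and 4.26 for LTBP1, lower in both sets. EDIL3, an RGD ligand of ITGAV receptors, moved the other way, from 0.187 to 0.477 CPM in A101D to 69.6 to 80.5 in MeWo, a log2 difference of 7.75 ± 0.14 with an adjusted p of 4.34e-18. By the filter, COL1A2 and COL6A2 could only be called lower and EDIL3 only higher. VTN, vitronectin, lay at 0.568 to 1.09 CPM over the libraries of both lines, with a log2 difference of 0.06 ± 0.15 and an adjusted p of 0.722.

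Of 48 genes of the adhesion machinery inside the cell, 46 were tested, with 13 higher (38.5% of all tested genes), 27 lower (40.5%) and 6 not called. Over 2-fold, 3 were higher (15.4% of all tested genes) and 10 lower (21.2%), and not all of these are named here. TLN1, talin, which activates integrins by binding beta tails, differed by −0.63 ± 0.03 (adjusted p = 3.29e-12). The kindlins, co-activators of talin, divided: FERMT2 was higher by 0.83 ± 0.04 and FERMT3, the kindlin of blood cells, was lower by −4.76 ± 0.11, with 32.3 to 39.8 CPM in A101D and 0.915 to 1.70 in MeWo. ILK, the pseudokinase at beta tails, differed by 0.38 ± 0.08 (adjusted p = 0.000531), and PTK2, focal adhesion kinase, by 0.11 ± 0.04 (adjusted p = 0.0227). The largest rises were in TNS1, a tensin that links integrins to actin, at 4.06 ± 0.20, RAPGEF1, an exchange factor for Rap1, at 1.23 ± 0.09, CD81, a tetraspanin partner of integrins, at 1.05 ± 0.04, and ITGB1BP1, a binder of the ITGB1 tail, at 0.97 ± 0.10.

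Several members lie in genes whose neighbours share exon sequence or in lists that mark other cell types. ITGB3 shares 2266 bases (51.6% of its exons) with AC068234.1 on its own strand, which had at most 0.0260 CPM. How reads on these shared bases were assigned was not tested, and the ITGB3 level and share per kilobase carry this limit. LAMA1 shares 1641 bases with the opposite-strand AP002409.1, which had at most 0.435 CPM. Other sharing neighbours were expressed: ITGB7 shares 1886 bases (42.1%) with the opposite-strand ZNF740, which had 37.1 to 63.2 CPM, and ITGA1 shares 475 bases (2.56%) with PELO on its own strand, which had 42.6 to 89.4 CPM. ITGA9 shares 535 bases (6.46%) with the opposite-strand ITGA9-AS1, which had 3.83 to 5.39 CPM in A101D and 1.29 to 1.70 in MeWo. ITGB2 shares 303 bases (4.46%) with the opposite-strand ITGB2-AS1, at 0.249 to 1.77 CPM in A101D and 0.0631 to 0.177 in MeWo. How far these neighbours entered the counts of ITGB7, ITGA1, ITGA9 and ITGB2 was not tested. Endothelial markers summed to 105.8 to 146.0 CPM in A101D and 3.02 to 3.43 in MeWo, 2 of 5 above a mean of 1 CPM in each line, and most of the A101D sum was KDR, while PECAM1 had at most 0.680 CPM. Keratinocyte and epithelial markers summed to 117 to 191 CPM in A101D, with 3 of 6 above 1 CPM, and to 2.06 to 3.36 in MeWo, with 1 of 6. KRT18, at 107.3 to 162.7 CPM in A101D and 1.34 to 2.47 in MeWo, and KRT8, at 8.84 to 26.5 and 0.4005 to 0.868, made up most of the A101D sum, while KRT5 had at most 0.0947 CPM in any library and EPCAM at most 0.265. Fibroblast and muscle markers summed to 20.5 to 44.5 CPM in A101D, with 5 of 7 above 1 CPM, and to 76.8 to 87.3 in MeWo, with 3 of 7, and most of the MeWo sum was LUM. Of that list, LUM, DCN and MYH11 were higher in MeWo. ACTA2 (9.21 to 31.9 CPM in A101D, 0.279 to 0.717 in MeWo), PDGFRA and PDGFRB were lower, and DES was not tested. The endothelial sum and the keratinocyte and epithelial sum were lower in MeWo, as most members were. The fibroblast and muscle sum was higher. The part of these sums in the member differences was not tested.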

How the data were processed

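Total RNA of both lines was sequenced after a stranded total RNA preparation, per the labels' protocols. The submitters' processing notes list Trimmomatic 0.39-1, STAR 2.7.1a, featureCounts 2.0.0 and GRCh38. Neither an annotation release nor a strand setting was found in these notes. The deposited values are other than plain numbers: each cell pairs an Ensembl identifier with a read count per gene, and these counts, not normalized by the authors, were split out and mapped to lines through the column names.

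Counts were scaled with trimmed means of M-values (30% and 5% trimmed) and given as CPM (counts per 1e6), or CPM per kb of exon (GENCODE v29). A gene was tested where 8 or more libraries reached 0.298 CPM, which is 10 counts in a library of median size, and its counts summed to 15 or more; 19247 of 60676 genes passed. The lines were compared with limma 3.58.1 (voom weights, robust moderation) in R 4.3.3, with Benjamini-Hochberg adjustment over all tested genes and a threshold of 0.05. The plan named this method for cells that are not plain counts, in place of its quasi-likelihood count test. That test was therefore not run on the split-out counts. The code was tested on simulated data. The low-count ratios carry exact 95% intervals.

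The members and lists were chosen with earlier results of these data known. Every member is accounted for. Members with a mean of at least 1 CPM in a line were described in full. Of the pathway genes, those named are the 5 furthest in each direction among called genes with a mean of at least 10 CPM in a line, plus 13 chosen by their role. Promoter windows came from RefSeq; those printed lie outside GENCODE exons. The alternatives were other scalings, filters, thresholds, replicate sets, a replicate block, limma-trend and 1 library left out.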

Additional observations from a re-analysis of the deposited data

How the results depend on the processing

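The 30 tested members were checked under 11 settings (329 checks, since a stricter filter dropped 1 member), and 326 kept their direction and their side of the threshold. Among the settings, an adjusted p of 0.01 reread the main fit, so that it could change a call but no direction. ITGA7 reversed, to −0.38 with replicates 5 to 8 only, and passed the threshold at 0.67 with replicates 1 to 4 only. ITGA11 kept its direction but lost its call at −0.20 with replicates 5 to 8 only. The cause was not tested. Over the settings, 7 to 8 members were higher in MeWo and 21 to 24 lower, 3 to 4 and 13 to 16 of them over 2-fold, and 19 to 25 pathway genes were higher and 51 to 60 lower. Without MeWo replicate 2, 7 members were higher and 23 lower. The other scalings shifted the median of all genes by −0.0138 to 0.00771.

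With a replicate block, 7 members were higher and 22 lower, 3 and 14 of them over 2-fold, and 21 pathway genes were higher and 57 lower. Same-numbered libraries of the lines correlated at 0.0451 to 0.138 in their deviations, over 0.1 for 4 of 8 numbers, and 4 of 16 libraries lay closest to their own number, so the numbers were not taken to pair the libraries, although all 8 correlations were positive.

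The planned count tests by quasi-likelihood and by DESeq2 were not run, because the deposited cells are not plain counts, although whole counts were split from them. Leaving out each library in turn was not run, as a line had 8. The low-count filter kept ITGA8, ITGAL, ITGB2 and ITGB7 out of the test. With no filter ITGB7 passed the threshold at −1.48 (limma-voom adjusted p = 0.000142), while ITGB2 had −0.66 (adjusted p = 0.0914), ITGAL 0.78 (adjusted p = 0.23) and ITGA8, with 1 count in all, no usable fold. With replicates 5 to 8 only, ITGB7 had −1.97 (adjusted p = 4.72e-05) and ITGB2 −1.11 (adjusted p = 0.00497). The MeWo levels of ITGAM, ITGB6 and LAMA3 rest on 17, 8 and 56 counts.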
